A study of Homo sapiens with 9 samples.

Results

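Gene expression of a metastatic breast carcinoma line, MIV, was compared with that of a carcinoma line, MIII, across all genes measured. The comparison was chosen by the lines' names in the sample labels and used 6 of the 9 arrays of the series, 3 of MIV and 3 of MIII. Both lines belong to the MCF-10A progression series, human breast epithelial cells derived from a non-tumorigenic line that carry activated HRAS. By the labels MIII is MCF-10A1h and MIV is MCF-10A1a, and the remaining 3 arrays hold MII (MCF-10AT1Kcl2), a model of carcinoma in situ. All 3 lines were grown in the same DMEM/F12 medium with horse serum, insulin, cholera toxin, epidermal growth factor and hydrocortisone. Each stage is represented by a single cell line, so the values compare these lines and do not give the spread among carcinomas of a stage. Arrays of a line are labelled as biological replicates, but nothing says that separate cultures were grown for them, so that p-values rest on array-to-array spread, part of which may be technical.

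Epithelial cells are joined by tight junctions, adherens junctions and desmosomes, and their apical and basal surfaces are kept apart by polarity complexes. In epithelial-mesenchymal transition, transcription factors of the ZEB, SNAI and TWIST families repress junction genes, and cells make more matrix, N-cadherin and vimentin; the GRHL, OVOL and ESRP regulators favour the epithelial state. Carcinoma cells can hold either state or one between them, and metastases often have epithelial features.

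MIV had higher signals of tight junction, polarity and sterol synthesis genes than MIII, and lower signals of collagens and other matrix genes, mesenchymal transcription factors, insulin-like growth factor binding proteins and a set of fatty acid handling genes. The largest rise was that of the tight junction gene CLDN7 and the largest fall that of the fatty acid carrier FABP4. The epithelial keratins KRT5, KRT8 and KRT18 were high in both lines, while KRT14 was lower in MIV and KRT19 was dim in both.

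The start sites of genes that were higher in MIV held the letters CACCTG, or CAGGTG on the other strand, more often than those of all genes tested. CACCTG is an E-box, the kind of site bound by zinc finger repressors of the ZEB and SNAI families and by several helix-loop-helix factors. The 300 bases around a start (250 before and 50 after it) were searched in RefSeq sequences of GRCh38.p14, on both strands. A single window was used per gene. Where a gene had several, it was the one of lowest chromosome coordinate, whichever the strand, and the others were not searched. The 2 forms cannot overlap each other. They occurred in 159 of the 481 higher genes with a sequence (33.1%), in 110 of the 760 lower genes (14.5%) and in 1935 of all 10232 genes with one (18.9%). At least 2 matches were found in 10.81% of higher, 1.45% of lower and 2.86% of all promoters. Of the 20 largest rises 14 had a sequence, and 3 of these had 2 or more matches. Their promoters are shown because they carry the pattern most densely among those rises; capitals mark each match, and each sequence is written in the direction of its gene.
CLDN7 (chr17:7262429-7262728, minus strand, 5 matches): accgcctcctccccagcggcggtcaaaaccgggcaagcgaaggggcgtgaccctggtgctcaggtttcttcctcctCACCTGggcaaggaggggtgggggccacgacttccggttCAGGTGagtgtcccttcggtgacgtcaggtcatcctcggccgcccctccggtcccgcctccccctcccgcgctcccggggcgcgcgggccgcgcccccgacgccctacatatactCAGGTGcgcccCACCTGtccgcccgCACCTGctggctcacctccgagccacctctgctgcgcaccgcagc
RAB25 (chr1:156060910-156061209, plus strand, 2 matches): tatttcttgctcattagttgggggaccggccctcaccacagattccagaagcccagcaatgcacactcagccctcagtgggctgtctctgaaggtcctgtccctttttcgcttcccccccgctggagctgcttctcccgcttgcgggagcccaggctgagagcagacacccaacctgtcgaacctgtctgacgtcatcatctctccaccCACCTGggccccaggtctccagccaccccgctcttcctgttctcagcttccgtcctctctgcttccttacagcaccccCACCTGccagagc
BSPRY (chr9:113349291-113349590, plus strand, 2 matches): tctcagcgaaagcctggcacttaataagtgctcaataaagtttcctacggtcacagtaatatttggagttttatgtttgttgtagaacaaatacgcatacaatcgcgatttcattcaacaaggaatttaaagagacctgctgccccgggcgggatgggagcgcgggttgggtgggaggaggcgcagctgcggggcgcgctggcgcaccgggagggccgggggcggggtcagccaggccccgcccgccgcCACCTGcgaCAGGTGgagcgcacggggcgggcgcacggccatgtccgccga
In CLDN7 the last 3 matches lie close together around the annotated start. A related E-box, CAGCTG, was found in 20.4% of higher, 20.3% of lower and 16.9% of all promoters, and CACGTG in 8.3%, 7.1% and 9.9%; neither set higher and lower genes apart in the way CACCTG did. The median GC content of the windows was 65.7% in higher genes, 63.8% in lower genes and 65.0% in all. Within 4 classes of GC content the share with CACCTG was 29.0% to 36.9% in higher genes against 14.3% to 20.6% in all genes and 9.9% to 19.8% in lower genes. Among promoters of the tight junction list 2 of 12 held a match (16.7%), near the share over all genes; of its members higher in MIV 2 of 7 did (28.6%), and of the 30 largest rises 9 of 22 (40.9%). These shares are descriptions of letters in a window, and no binding was measured. The 2 other E-boxes and the GC classes were chosen after the first shares had been seen.

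Every array had the same trimmed mean of 500.07, and the median signal was 72.1 to 74.9 in MIII and 64.7 to 65.2 in MIV. Across probe sets, which are not independent, arrays correlated at r = 0.975 to 0.976 within MIII and within MIV and at 0.947 to 0.951 between them. MIV replicate 3 stood apart in its bioB spike-in controls, whose signals averaged 2619.8, where the remaining arrays of the series had 822.9 to 1283.3; without it 604 genes were higher and 959 lower. With 3 arrays a line the precision is limited, and the standard errors of log2 changes had a median of 0.107.

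Of 12594 genes tested, 1604 were called (12.7%), that is, they had a limma adjusted p under 0.05 and differed by at least 2-fold. They were 623 higher in MIV (4.95%) and 981 lower (7.79%). Changes are given as log2 of MIV over MIII after adding an offset of 18.3 to each signal, which understates the change of dim genes, and errors of changes are standard errors (SE). Falls were larger as well as more frequent: 345 lower genes and 170 higher genes changed by at least 2 log2 units, 53 and 15 by at least 4, and 8 and 1 by at least 6. The median change was 1.5 among higher and -1.64 among lower genes, against -0.01 over all genes tested. Lower genes ended dim, with a median signal of 79.4 in MIV against 410.9 in MIII, while higher genes started from a median of 211.7 in MIII and reached 791.4. Among genes over 435.7, the 75th percentile of all signals, in at least 1 line, 415 were higher and 474 lower of 8217. The 3 arrays of one line lay wholly above the 3 of the other in 1588 called genes (99.0%) and in 7405 of all genes tested (58.8%). Among long non-coding RNAs 42 were higher and 30 lower of 671, so that 10.7% were called, near the 12.7% over all genes tested. Protein-coding genes had 569 higher and 938 lower of 11685 (12.9% called). Whether the balance of directions differs between these classes was not tested. These are bulk RNA values, in which fewer cells of a kind and less RNA per cell cannot be told apart.

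**Figure D1:**
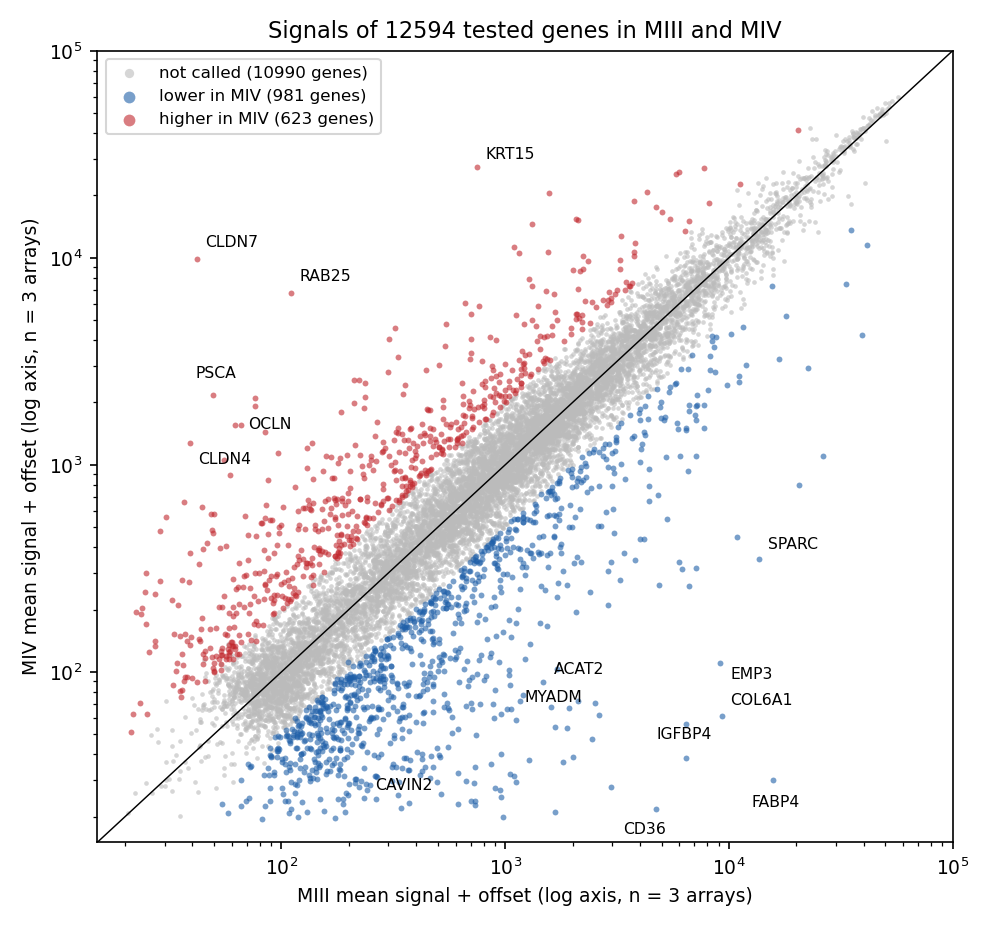
Mean signal plus the offset of 18.3 in MIII (horizontal) and MIV (vertical) for 12594 genes on log axes, each point a gene and the line marking equal signals. Called genes are coloured, 623 higher (red) and 981 lower (blue); the lower genes reach farther from the line than the higher ones, and many lie near the bottom of the MIV axis.

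The largest rises were led by surface and junction proteins of epithelia. CLDN7, a claudin that seals tight junctions, had signals of 8.6, 13.4 and 48.5 in MIII and 8925, 10309 and 10242 in MIV, a log2 change of 7.996 ± 0.23 (limma adjusted p = 4.70e-12). RAB25, a small GTPase of epithelial recycling endosomes, had 98.1, 84.6 and 92.9 in MIII and 7056, 6366 and 6728 in MIV, with a change of 5.93 ± 0.07. PSCA, a surface antigen anchored by a lipid, had 12.8, 46.3 and 33.6 in MIII and 2414, 2207 and 1882 in MIV and a change of 5.53 ± 0.19. For each of these 3 genes the lowest MIV array was far above the highest MIII array. KRT15, a keratin of basal epithelial layers, was the brightest of the group, with 785, 687 and 719.8 in MIII and 29180.5, 24130.2 and 28948 in MIV, and rose by 5.19 ± 0.07. CLDN4, another claudin, had 18.2, 10.4 and 33.8 in MIII and 1283, 1287 and 1197 in MIV (5.07 ± 0.18). OCLN, which encodes the tight junction protein occludin, had 70.2, 14.5 and 47.0 in MIII and 1476, 1677 and 1459.7 in MIV (4.76 ± 0.25). In MIII the signals of CLDN7, PSCA and CLDN4 lay on every array under 69.3, the median of all values of the series, whereas KRT15 was already well above it.

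Further rises among the 20 largest included secretory and membrane genes. BSPRY, a B-box and SPRY domain protein, had 53.1, 37.0 and 82.4 in MIII and 1937, 2167 and 2179.6 in MIV, a change of 4.84. PRSS8, a membrane-anchored serine protease that activates epithelial sodium channels, had 55.2, 45.7 and 42.0 in MIII and 1409, 1664 and 1561 in MIV (4.57 ± 0.12). ERBB3, the kinase-impaired partner of ERBB2, had 4.6, 58.9 and 26.3 in MIII and 534, 524 and 618 in MIV (3.75 ± 0.31). MIII arrays thus varied widely for ERBB3 at signals too dim to rank, and the MIV arrays lay close to each other. S100A14, a calcium-binding protein of epithelia, had 1582, 1476 and 1615 in MIII and 20930.3, 19933 and 21062 in MIV and the smallest change of the 20 at 3.71 ± 0.05. CALB2 (calretinin), the tetraspanin TSPAN1 and the nucleotidase ENTPD2 rose by 3.84 ± 0.10, 3.81 ± 0.20 and 4.10 ± 0.14. GABRP, a GABA-A receptor subunit found in breast epithelium, rose by 4.31 ± 0.25, and SYNE4, a nuclear envelope linker of epithelial cells, by 4.07 ± 0.18. The ubiquitin ligase RNF128 rose by 4.28 ± 0.19, and TMEM125, a membrane protein, by 4.19 ± 0.17. Of the non-coding or uncharacterised genes in the set, LOC389831 rose by 4.65 ± 0.21, LINC03040 by 4.06 ± 0.38 and LINC01315 by 3.99 ± 0.35.

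The largest falls were in lipid handling, growth factor binding and matrix. FABP4, a cytosolic fatty acid carrier typical of adipocytes, had signals of 15863, 15713 and 15414 in MIII and 4.2, 2.6 and 28.1 in MIV, and fell by 9.13 ± 0.24 on the log2 scale (limma adjusted p = 1.63e-12). CD36, a receptor that takes up fatty acids, had 4704, 4359 and 5060.0 in MIII and 4.3, 4.4 and 1.9 in MIV (-7.76 ± 0.20). IGFBP4, which binds insulin-like growth factors, had 6596, 6277 and 6357 in MIII and 8.9, 38.3 and 12.9 in MIV (-7.47 ± 0.31). All 3 genes were among the brighter ones in MIII and lay under the pooled median on all 3 MIV arrays, so the order of their changes rests on values near the floor. COL6A1, a chain of collagen VI, had 8997, 9455 and 9372 in MIII and 49.0, 9.1 and 70.9 in MIV (-7.41 ± 0.32). SRGN, the core protein of secretory granule proteoglycan, had 6524, 6284 and 6443 in MIII and 32.2, 54.1 and 25.9 in MIV (-6.88 ± 0.23). ENPP2 (autotaxin), which makes lysophosphatidic acid, had 2774, 3109 and 2999 in MIII and 12.6, 1.1 and 14.5 in MIV (-6.78 ± 0.32). Each of these 3 had MIII arrays within a narrow range and MIV arrays that were dim and scattered.

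EMP3, a tetraspan membrane protein, kept a signal in MIV that was near the pooled median, with 9517, 8828 and 9036 in MIII and 109.7, 61.6 and 106 in MIV (-6.40 ± 0.14). SPARC, a matrix protein that binds collagen, stayed clearly above the pooled median in MIV, unlike most of the 20 largest falls, with 12935, 14542 and 13535 in MIII and 424, 312 and 261 in MIV (-5.31 ± 0.14). CCND2, a cyclin of the G1 phase, had 1181, 1351 and 1236 in MIII and 3.0, 18.7 and 36.2 in MIV (-5.18 ± 0.30). Its fall was the largest in the cell cycle list, most of which moved little. POSTN (periostin), CCN3, SDC2 (syndecan-2) and DCN (decorin), all of the matrix or cell surface, had changes of -6.31, -5.72, -5.61 and -5.29. GNG11, a G protein gamma subunit, the estrogen sulfotransferase SULT1E1 and the membrane protein MYADM had changes of -5.79 ± 0.32, -5.69 ± 0.14 and -5.46 ± 0.19. The interferon-induced IFI44L and the pentraxin PTX3 had -5.26 ± 0.21 and -5.18 ± 0.33, and the homeodomain-only protein HOPX -5.16 ± 0.17. GAS1, a membrane protein that binds hedgehog ligands, had a change of -5.27 ± 0.31, but its highest-mean suffix-free probe set (one without the suffixes Affymetrix gives to probe sets that may match several transcripts) gave -0.05.

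**Figure D2:**
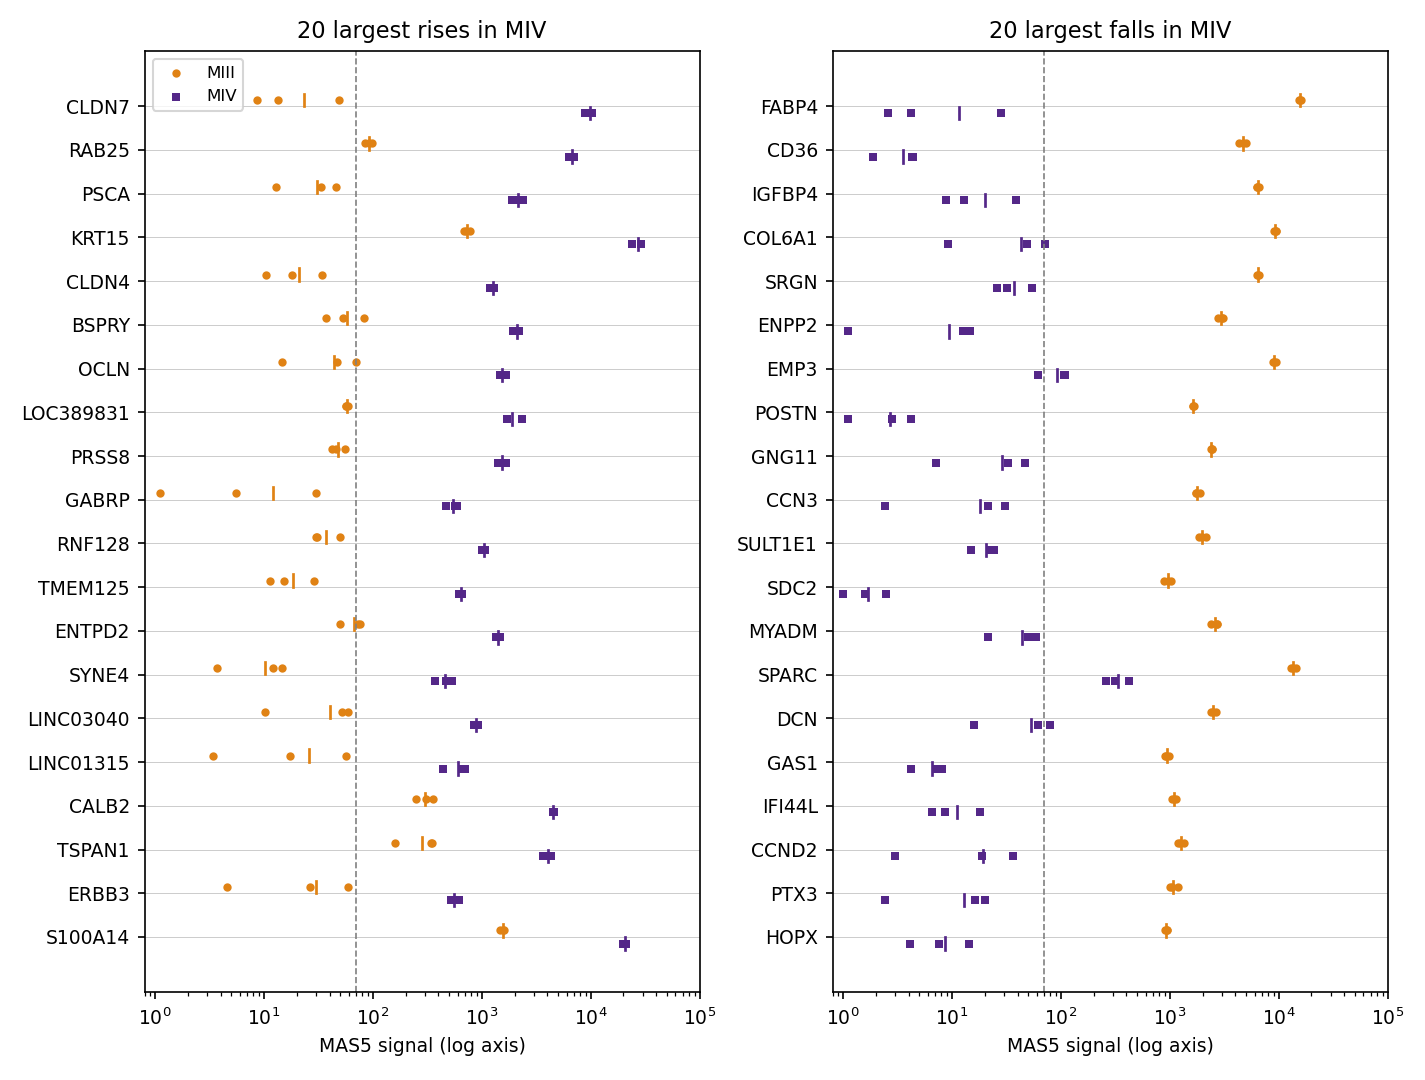
MAS5 signals (log axis) of the 20 largest rises (left) and 20 largest falls (right) on each array, MIII as circles and MIV as squares, with a tick at each line's mean and a dashed line at the pooled median of 69.3. The arrays of the lines do not overlap for any of the 40 genes, as the choice required; most of the falls end under the dashed line, while KRT15, CALB2, TSPAN1 and S100A14 start well above it.

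Some genes had signal in one line and none above the pooled median in the other. The criterion was all 3 arrays of one line over 435.7 and all 3 of the other under 69.3, which 13 genes met with MIV as the bright line and 46 with MIII. Since values under the median were treated as having no order, folds are lower bounds, the mean of the bright line over the pooled median. CLDN7 was at least 141.8-fold higher in MIV, PSCA at least 31.28-fold, PRSS8 at least 22.29-fold and CLDN4 at least 18.12-fold. FABP4 was at least 226-fold lower, SRGN at least 92.6-fold, IGFBP4 at least 92.5-fold, CD36 at least 67.93-fold and ENPP2 at least 42.72-fold. CDH2, encoding N-cadherin, was at least 30.29-fold lower. By this measure IGFBP4 and SRGN had nearly the same bound, although their log2 changes were -7.47 and -6.88. CAVIN2, the caveola coat protein for which the series is named, was among the 46, with 532, 619 and 643 in MIII and 20.3, 20.8 and 1.2 in MIV, a change of -4.31 ± 0.23 and a bound of at least 8.627-fold.

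The in situ line MII was set beside these extremes as a description. Distances were taken on the log2 scale with the offset. On it MII lay nearer to MIV than to MIII for 16 of the 20 largest rises and 16 of the 20 largest falls. CLDN7 had a mean of 10232 in MII, KRT15 34334 and RAB25 5868. FABP4 had a mean of 66.3, CD36 18.5 and COL6A1 62.0. For these 6 genes MIII was thus the line that stood apart. The other 4 genes of each set had MII nearer to MIII. Among these, MYADM had similar means in MII (2675.6) and MIII (2611.3) but only 43.7 in MIV. RNF128 was dim in MII (mean 85.5) and MIII (36.9) and reached 1037.5 only in MIV. CAVIN2, outside both sets, was also low in MIV alone, with a mean of 14.1 there against 1125.3 for MII and 597.8 for MIII. MII was nearer MIV for 438 of the 623 higher genes (70.3%) and for 604 of the 981 lower genes (61.6%). The share over all genes tested was not computed. Across probe sets MII arrays correlated at a mean r of 0.96 with MIV and 0.948 with MIII, so these shares are not read as particular to called genes. The choice to look at MII was made after the values of the comparison were seen.

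Gene lists drawn up by role were read against these background shares. Over all 42 lists 1019 genes were tested, of which 117 were higher and 227 lower. The lists were chosen with earlier results of these data known, so their counts describe the lines and are no independent evidence of a direction. Members over the pooled median in MIII alone passed the filter on dim signals through MIII and could only be called lower. Those over it in MIV alone could only be called higher. Counts and medians of the lists include such members.

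**Figure D3:**
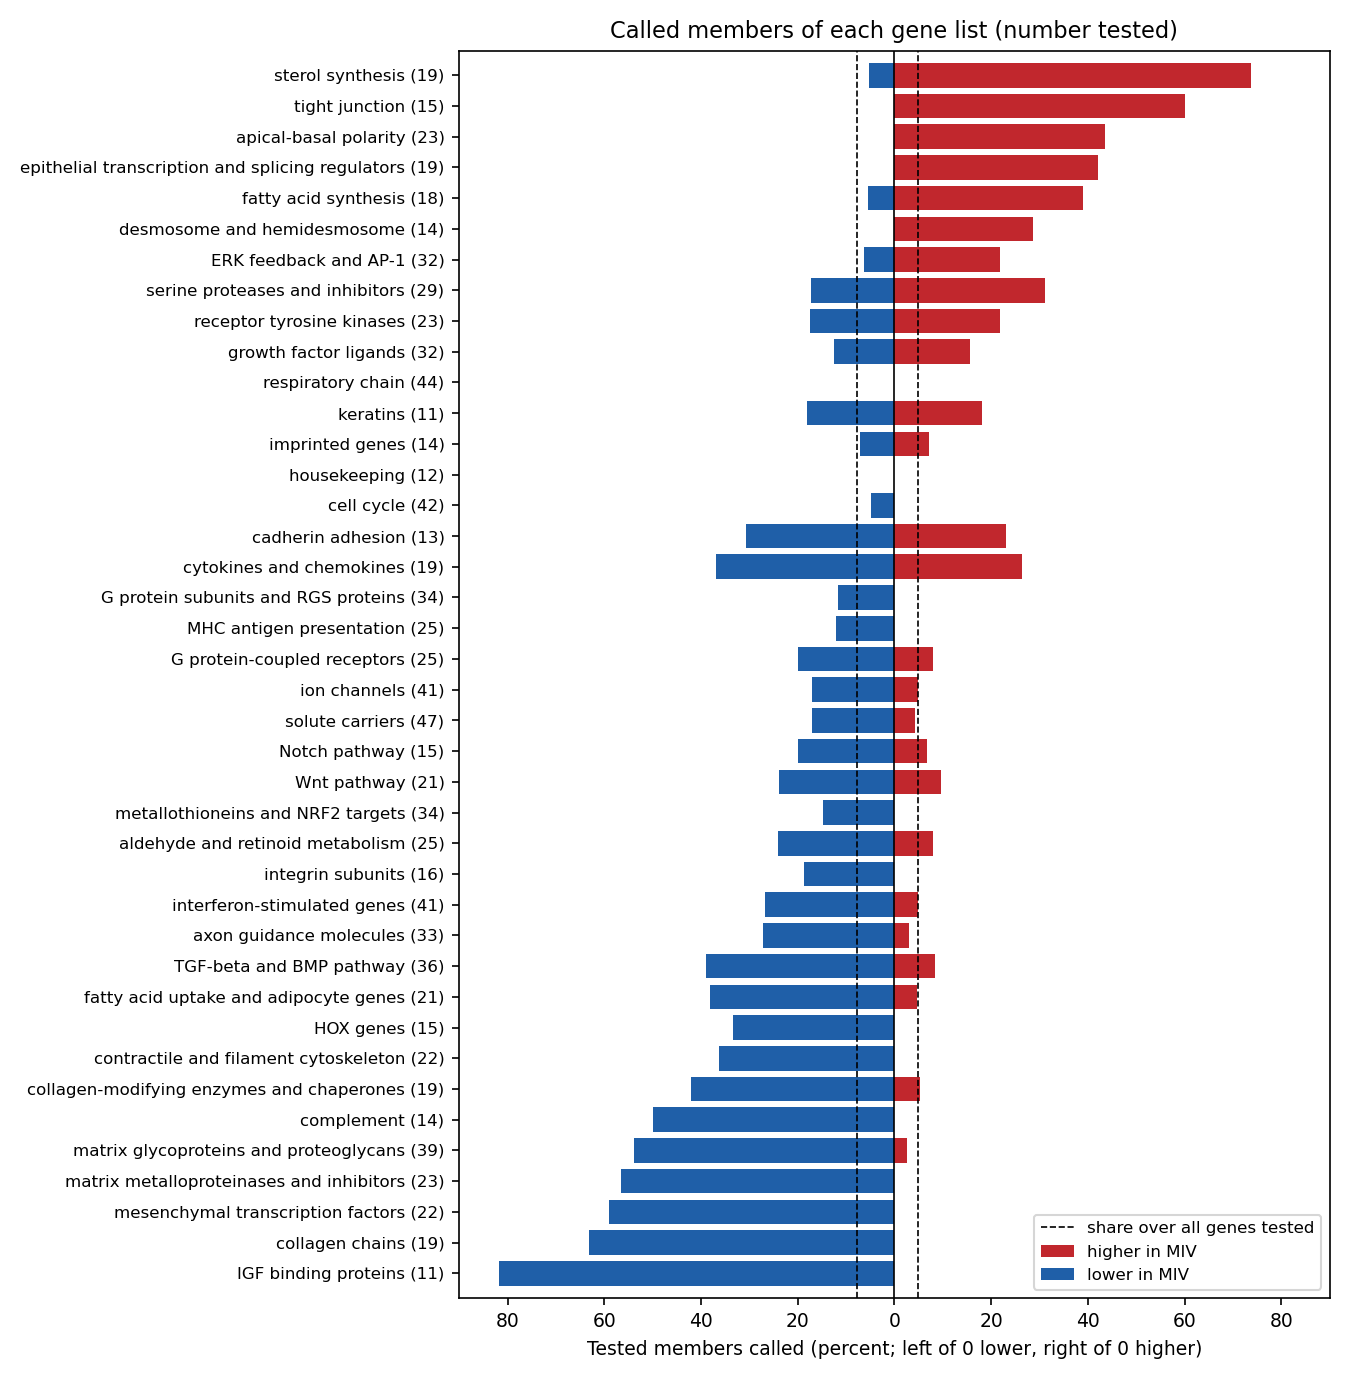
Percent of the tested members of each list described here that were called lower (left of 0, blue) or higher (right of 0, red) in MIV. Lists are ordered by the percent higher minus the percent lower, with the number tested in brackets. Dashed lines mark the shares over all genes tested, 7.79% lower and 4.95% higher; sterol synthesis, tight junction, polarity and epithelial regulator lists pass the line on the right, and binding protein, collagen, mesenchymal factor and metalloproteinase lists pass it on the left.

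Tight junction genes were higher in 9 of the 15 members tested and lower in 0 (60%), with a median change of 1.32. Besides CLDN7, CLDN4 and OCLN, the rises were those of CGN, which encodes the cytoplasmic adaptor cingulin, CLDN1, TJP3, CLDN12, MARVELD3 and CXADR. CGN had 9.4, 10.4 and 6.9 in MIII and 251, 215 and 191 in MIV (3.12 ± 0.20). CLDN1, the claudin of skin and stratified epithelia, had 871, 811 and 826 in MIII and 4165, 4159 and 4121 in MIV (2.29 ± 0.06). CLDN1 was therefore present in MIII where CLDN7 and CLDN4 were at the floor. The scaffold TJP3 had 42.9, 30.2 and 65.6 in MIII and 174, 200 and 210.4 in MIV (1.76 ± 0.20). The list's lowest member had a change of -0.87.

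Polarity and apical trafficking genes had positive changes in 23 of 23 members, and 10 of them were called. LLGL2, of the basolateral Scribble complex, had 173, 104 and 77.0 in MIII and 1149.9, 1244 and 1367 in MIV (3.28 ± 0.20). CRB3, the epithelial Crumbs protein of the apical membrane, had 114, 89.3 and 139 in MIII and 555, 561 and 746 in MIV (2.27 ± 0.16). MPP7, a scaffold that binds DLG1, had 64.0, 23.1 and 26.5 in MIII and 382, 407 and 369 in MIV (2.92 ± 0.23). All MIV arrays were above all MIII arrays for the 3 genes. AP1M2, the adaptor subunit that sorts proteins to the basolateral side, rose by 3.16 ± 0.08, and MAL2, which acts in transcytosis, by 2.06 ± 0.06. PARD3, the scaffold of the PAR complex, was just at the 2-fold minimum with 1.00 ± 0.06.

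Adherens junction genes moved in both directions, with 3 higher and 4 lower of 13. CDH1 (E-cadherin), which joins epithelial cells, had 1281, 1342 and 1291 in MIII and 7116, 7357 and 7390.2 in MIV and rose by 2.47 ± 0.05 (limma adjusted p = 8.20e-14). CDH2 (N-cadherin), found in mesenchymal and neural cells, had 1794, 2130.3 and 2373 in MIII and 43.2, 55.6 and 64.1 in MIV and changed by -4.87 ± 0.17. CDH11, a cadherin of mesenchymal cells, had 337, 372 and 367 in MIII and 19.4, 25.9 and 12.2 in MIV (-3.35 ± 0.28). E-cadherin was thus bright in both lines and brighter in MIV, while N-cadherin and CDH11 were under the pooled median in MIV. CDH19 changed by -3.55 ± 0.07 and the nectin NECTIN3 by -1.47 ± 0.12. EPCAM, an epithelial adhesion molecule, rose by 2.32 ± 0.07. CDH3 (P-cadherin) rose by 1.03 ± 0.06, which falls just short of 2-fold without MIII replicate 3 (0.995) or after cyclic loess normalization (0.99). Desmosome and hemidesmosome genes were higher in 4 of 14 and lower in 0, namely DSC2 (2.30 ± 0.08), the plaque protein JUP (2.19 ± 0.06), DSG3 (1.77 ± 0.08) and PKP2 (1.20 ± 0.07).

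Regulators of the epithelial state were higher in 8 of 19 and lower in 0, with a median of 0.78. GRHL1, a grainyhead factor of epidermal differentiation, had 123, 100.2 and 111 in MIII and 1172, 1345 and 1058 in MIV (3.22 ± 0.10). ESRP1, which directs epithelial splicing, had 668, 691 and 700.4 in MIII and 5673, 5136 and 5189.6 in MIV (2.92 ± 0.06, limma adjusted p = 1.01e-13). GRHL2, which activates junction genes such as CDH1, had 211, 191 and 153 in MIII and 978, 693 and 1076 in MIV (2.19 ± 0.15). These 3 were over the pooled median in MIII and higher still in MIV. OVOL2, a zinc finger repressor of mesenchymal genes, rose by 2.18 ± 0.08 on its brightest probe set, and its suffix-free one gave 0.31. ELF3, an epithelial ETS factor, rose by 2.03 ± 0.08, and RBM47, an RNA-binding splicing regulator, by 1.97 ± 0.11. ZNF750, counted among the 8, had signals under the pooled median in both lines (7.4, 4.7 and 3.2 in MIII and 64.0, 43.3 and 50.8 in MIV) and was tested through its signal in MII, so no rise is read from it. KLF4, which also serves in epithelial differentiation, had the lowest change of the list at -0.87 ± 0.08 and was not called.

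Mesenchymal transcription factors were lower in 13 of 22 and higher in 0, with a median of -1.31. FOXC2, a forkhead factor linked to epithelial-mesenchymal transition, had 1660.3, 1498 and 1593 in MIII and 55.0, 42.2 and 49.7 in MIV (-4.58 ± 0.13). ZEB1, a repressor of CDH1, had 402, 366 and 386 in MIII and 47.1, 4.8 and 15.9 in MIV (-3.43 ± 0.38). ZEB2, its paralog, had 264, 192 and 279 in MIII and 1.1, 1.1 and 15.7 in MIV (-3.48 ± 0.40). In MIV the arrays of FOXC2, ZEB1 and ZEB2 were all under the pooled median, and in MIII all were over it. TWIST2, a helix-loop-helix factor of mesenchyme, had 978, 1058 and 1054 in MIII and 78.3, 62.0 and 65.3 in MIV (-3.60 ± 0.12), and SIX2 and EBF1 changed by -3.45 ± 0.17 and -3.27 ± 0.34. SNAI2 (Slug) and TWIST1 fell less and stayed bright, SNAI2 with 4048, 4168 and 4253 in MIII and 1519, 1416 and 1315 in MIV (-1.54 ± 0.06) and TWIST1 with a change of -1.46 ± 0.10. SNAI1 (Snail) was dim in both lines and was not called, with 146, 51.5 and 129.7 in MIII and 35.9, 107 and 94.6 in MIV. QKI, an RNA-binding factor of the list, had 4949, 4729.8 and 5830.5 in MIII and 5438, 5817 and 5252 in MIV and a change of 0.09 ± 0.07.

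**Figure D4:**
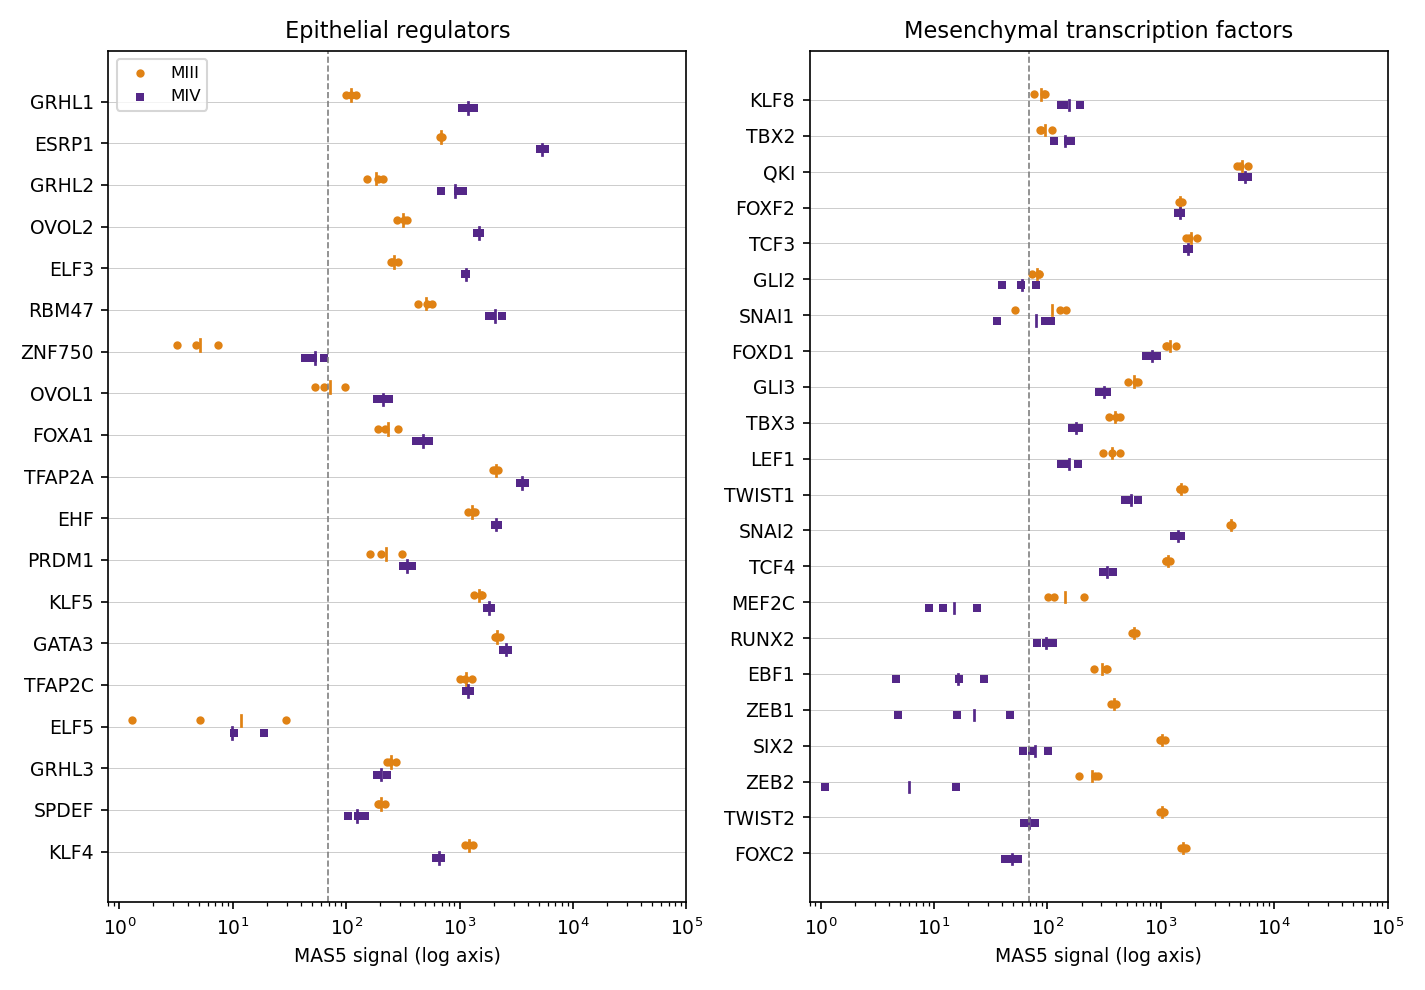
MAS5 signals (log axis) of 19 epithelial regulators (left) and 22 mesenchymal transcription factors (right) on each array, ordered by change, with ticks at line means and a dashed line at the pooled median of 69.3. MIV squares lie to the right of MIII circles for the 8 called epithelial regulators at the top left, and to the left of them for the 13 called mesenchymal factors from TBX3 down to FOXC2.

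Keratins moved in both directions, with 2 higher and 2 lower of 11. KRT15 rose as given above, whereas KRT14, a keratin of basal cells, had 949, 1045 and 877 in MIII and 151, 114 and 146 in MIV (-2.66 ± 0.11). KRT23 changed by -2.11 ± 0.26 from dim signals. KRT13, counted among the 2 higher, was under the pooled median in both lines (3.5, 3.3 and 3.0 in MIII and 32.3, 56.6 and 44.4 in MIV). KRT13 was tested through its signal in MII, so no rise is read from its change of 1.52 ± 0.27. With an offset at the pooled median KRT13 had 0.64 and lost its call. Genes of the contractile and filament cytoskeleton were lower in 8 of 22 and higher in 0, with a median of -0.50. Vimentin (VIM), the filament of mesenchymal cells, had 35488, 36283 and 33546 in MIII and 13208, 12665 and 14798 in MIV (-1.37 ± 0.06). It thus remained among the brightest signals of MIV. The intermediate filament NES and the myosin light chain MYL9 changed by -3.14 ± 0.33 and -3.04 ± 0.36, and TGFB1I1, a focal adhesion protein induced by TGF-beta, by -2.56 ± 0.14. The call of TAGLN (-2.48 ± 0.19) was lost on its suffix-free probe set (-0.03), and that of the kinase MYLK (-2.41 ± 0.22) when its probe sets were averaged (-0.88).

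Of 26 collagen chains on the array 19 passed the filter on dim signals. They were lower in 12 of 19 and higher in 0, with a median of -1.80. COL6A2 and COL6A3, which assemble with COL6A1 into collagen VI, had 914, 828 and 909 in MIII and 8.4, 11.6 and 7.2 in MIV and 509.5, 479.5 and 502 in MIII and 8.6, 9.4 and 4.6 in MIV. COL6A2 changed by -5.04 ± 0.26, though its suffix-free probe set gave -0.46, and COL6A3 by -4.32 ± 0.34. COL3A1, a chain of fibrillar collagen, had 623, 701 and 633 in MIII and 2.0, 5.1 and 26.7 in MIV (-4.59 ± 0.34). All 3 were under the pooled median on every MIV array and every MII array. They were thus tested through their signal in MIII and could only be called lower. COL5A3 changed by -4.42 ± 0.34, and COL7A1, the anchoring fibril collagen, by -3.35 ± 0.31. Enzymes and chaperones that modify collagen were lower in 8 of 19 and higher in 1. The crosslinking oxidase LOX had 2866, 3072 and 3157 in MIII and 492, 401 and 462 in MIV (-2.70 ± 0.12), and its relative LOXL4 moved the other way with 54.2, 82.9 and 20.6 in MIII and 359, 290.3 and 332 in MIV (2.39 ± 0.28). LOXL1 changed by -2.37 ± 0.16, the hydroxylase PLOD2 by -1.89 ± 0.06, the collagen chaperone SERPINH1 by -1.82 ± 0.08 and the proteinase enhancer PCOLCE2 by -1.92 ± 0.10. On suffix-free probe sets 1 of 9 members of this list was lower and 1 higher.

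Matrix glycoproteins and proteoglycans were lower in 21 of 39 and higher in 1, with a median of -1.23. FN1, which encodes fibronectin, had 20955, 21544 and 19064 in MIII and 827, 862 and 666 in MIV (-4.68 ± 0.13, limma adjusted p = 2.81e-12). DCN, a small proteoglycan that binds collagen, had 2491, 2639 and 2404 in MIII and 79.7, 62.2 and 16 in MIV. POSTN had 1661, 1641 and 1632 in MIII and 4.2, 1.1 and 2.8 in MIV and SDC2, a cell surface heparan sulfate carrier, 962, 1031 and 890.5 in MIII and 1.6, 1.0 and 2.5 in MIV. Fibronectin stayed above the pooled median in MIV, unlike POSTN and SDC2. SRPX2, a secreted sushi-repeat protein, was the one member that rose, by 1.88 ± 0.09, and averaging its probe sets gave 0.72. Metalloproteinases and their inhibitors were lower in 13 of 23 and higher in 0, with a median of -1.45. MMP2, a gelatinase, had 1689.8, 1547 and 1731 in MIII and 38.2, 17.8 and 51.8 in MIV (-5.00 ± 0.24), and TIMP3, a matrix-bound inhibitor, had 1818, 1969 and 1809 in MIII and 33.9, 28.9 and 42.9 in MIV (-5.14 ± 0.12). Proteases and inhibitors thus fell side by side. MMP19, MMP7, ADAMTS1 and ADAM19 changed by -4.74 ± 0.37, -3.65 ± 0.14, -2.91 ± 0.35 and -2.54 ± 0.14.

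Serine proteases and their inhibitors did not move as one group, with 9 higher and 5 lower of 29 and a median of 0.15. ST14 (matriptase), a membrane protease of epithelia that acts with PRSS8, had 684, 605 and 736 in MIII and 3047, 3105 and 3475 in MIV (2.22 ± 0.09). The kallikrein KLK5, a protease of stratified epithelia, had 283, 316 and 343 in MIII and 3203, 3289 and 3455 in MIV (3.33 ± 0.07), and KLK6 rose by 2.22 ± 0.11. The inhibitor SERPINB1 rose by 2.24 ± 0.06. SERPINE2, an inhibitor of thrombin and urokinase, had 38883, 39790.5 and 39166 in MIII and 4369, 4020.1 and 4246 in MIV (-3.22 ± 0.06). The falls of SERPINF1, PRSS23 and PLAT were -2.18 ± 0.36, -1.71 ± 0.08 and -1.55 ± 0.07. Kallikreins did not rise as a group: KLK10 fell by 1.22 ± 0.20, and KLK7, KLK8, KLK11 and KLK13 were not called. Integrin subunits were lower in 3 of 16 and higher in 0: the vitronectin receptor chain ITGAV had 9051, 7302 and 8332 in MIII and 2768, 2899 and 2890.0 in MIV (-1.52 ± 0.07), ITGA10 changed by -1.22 ± 0.26 and ITGBL1 by -1.09 ± 0.11. The ITGA10 and ITGBL1 calls were lost with an offset at the pooled median (-0.90 and -0.97).

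Cholesterol is built from acetyl-CoA through mevalonate, squalene and lanosterol, and most enzymes of the route are induced together by the transcription factor SREBF2 when cell sterol is low. Of the 25 genes listed for sterol synthesis 19 were analysed here, of which 14 were higher in MIV and 1 lower, with a median change of 1.71. HMGCS1, which makes HMG-CoA, had 12450.2, 10795 and 10448 in MIV and 976, 1259 and 1001 in MIII (3.36 ± 0.09, limma adjusted p = 2.48e-12). MVD, the decarboxylase that ends the mevalonate part, had 1863, 2182 and 1861 in MIV and 209.7, 199.5 and 170.4 in MIII (3.23 ± 0.10). IDI1, the isomerase of isoprenoid units, had 21659.8, 18972 and 21747 in MIV and 4298, 4147 and 4349 in MIII (2.28 ± 0.07), and its suffix-free probe set gave 0.18. The arrays of the lines did not overlap for any of them. MSMO1, a demethylating oxidase after lanosterol, had 25936, 25814 and 25816 in MIV and 6344, 5872 and 5741 in MIII (2.11 ± 0.05). INSIG1, an endoplasmic reticulum protein that restrains SREBP processing, had 10784, 10259 and 10783 in MIV and 1517, 1572 and 1520.1 in MIII (2.77 ± 0.06). DHCR7, the enzyme that completes cholesterol by one of its routes, rose by 1.36 ± 0.06.

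ACAT2, the cytosolic thiolase that starts the route, was the exception, with 1394, 1519 and 1467 in MIII and 86.6, 53.5 and 72.8 in MIV (-4.07 ± 0.12). Of the 4 members not called, MVK, PMVK, NSDHL and SREBF2 had changes of 0.61 ± 0.08, 0.91 ± 0.08, 0.93 ± 0.10 and 0.81 ± 0.21. The summed mean signal of the 19 genes was 38351 in MIII and 142983 in MIV. Genes of fatty acid synthesis were higher in 7 of 18 and lower in 1, with a median of 0.64. ACSS2, which makes acetyl-CoA from acetate, had 5486, 4529.9 and 4349 in MIV and 549, 495 and 533 in MIII (3.14 ± 0.09). FASN, the fatty acid synthase, had 15108, 14831 and 16036 in MIV and 5262, 5478 and 5524 in MIII (1.496 ± 0.05), and the desaturase SCD had 26412, 26482 and 28912 in MIV and 7489, 7926 and 7701 in MIII (1.82 ± 0.05). LPIN1, a phosphatidate phosphatase, and the elongase ELOVL7 rose by 1.93 ± 0.05 and 1.92 ± 0.14. GPAM, an acyltransferase of triglyceride synthesis, changed by -1.66 ± 0.09. On suffix-free probe sets 9 of 13 sterol genes were higher and 0 lower, since ACAT2 has no such probe set, and 3 of 13 fatty acid synthesis genes were higher.

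**Figure D5:**
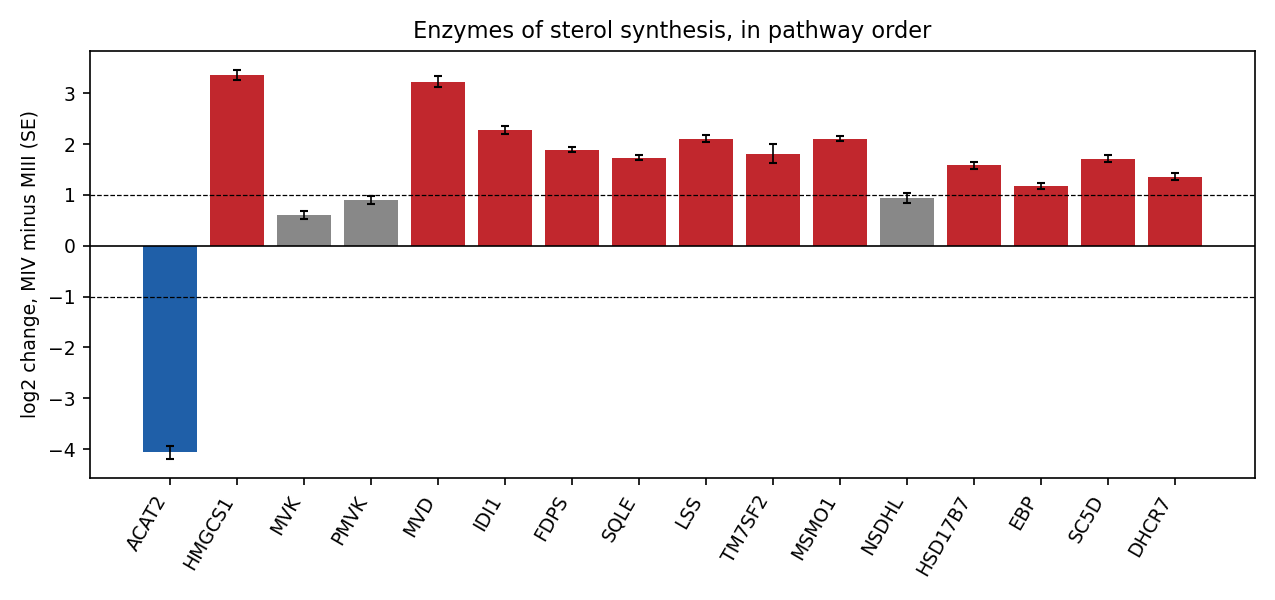
Log2 change, MIV minus MIII (on the offset scale), of 16 sterol synthesis enzymes in the order of the pathway, with standard errors from limma and dashed lines at a 2-fold change. Bars are red for higher, blue for lower and grey for not called; 15 of the 16 enzymes lie above 0 and ACAT2 alone below.

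Genes of fatty acid uptake and of adipocytes gave another picture, with 1 higher and 8 lower of 21 and a median of -0.32. Next to FABP4 and CD36, APOE, an apolipoprotein, had 908, 905 and 818 in MIII and 54.3, 29.6 and 40.0 in MIV (-3.93 ± 0.26). ANGPTL4, a secreted inhibitor of lipoprotein lipase, changed by -2.25 ± 0.08, and PLIN1, a lipid droplet coat protein, by -2.15 ± 0.38 from dim signals. The acyl-CoA synthetase SLC27A2 rose by 1.86 ± 0.13. PPARG, the nuclear receptor that drives adipocyte genes, had 952.8 to 1104.3 in MIII and 949.8 to 1027.6 in MIV. The adipokine genes ADIPOQ and LEP were under the pooled median in both lines.

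Proteins that bind insulin-like growth factors, or cleave such binding proteins, were lower in 9 of 11 and higher in 0, with a median of -2.81. Binding proteins hold these growth factors away from their receptor, and PAPPA is a protease that frees them from IGFBP4. IGFBP3, the main carrier in serum, had 7034, 7119.8 and 7187 in MIII and 364, 284 and 249 in MIV (-4.51 ± 0.12). IGFBP6 had 6327, 5917 and 6278 in MIII and 275, 298 and 310.3 in MIV (-4.31 ± 0.08). IGFBP7, which binds these factors weakly, had 3312, 4051 and 4048 in MIII and 369, 279.9 and 334 in MIV (-3.47 ± 0.11). These 3 remained above the pooled median in MIV, while IGFBP4 did not. IGFBP5 had 287, 334 and 258 in MIII and 2.3, 28.0 and 3.9 in MIV (-3.48 ± 0.44), and averaging its probe sets gave -0.86. PAPPA had 6516, 6372 and 6699.9 in MIII and 887, 981 and 874 in MIV (-2.81 ± 0.09), so that substrate and protease were both lower. The summed mean signal of the list was 41655 in MIII and 6404 in MIV.

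Receptor tyrosine kinases were split, with 5 higher and 4 lower of 23. AXL, a receptor for GAS6 found in mesenchymal-like carcinoma cells, had 4366, 4597 and 4162 in MIII and 782, 769.8 and 755 in MIV (-2.48 ± 0.06). FGFR1 changed by -1.35 ± 0.12, and the ephrin receptors EPHA4 and EPHB6 by -2.01 ± 0.24 and -1.64 ± 0.27. EPHA1, another ephrin receptor, rose by 2.16 ± 0.11. The receptor ERBB2, the signalling partner of ERBB3, had 1848, 1924 and 1894 in MIV and 804, 709 and 700.5 in MIII (1.34 ± 0.08). Growth factor ligands were higher in 5 of 32 and lower in 4. FGFBP1, a carrier that releases fibroblast growth factors from matrix, had 10839.6, 9851 and 10859 in MIV and 1216, 1257 and 943 in MIII (3.20 ± 0.09). Midkine (MDK) changed by -2.54 ± 0.26, BDNF by -2.12 ± 0.43, the angiopoietin ANGPT1 by -2.08 ± 0.27 and FGF13 by -1.65 ± 0.28. PDGFB was dim, with 10.3, 20.4 and 15.9 in MIII and 42.7, 108.0 and 95.8 in MIV, and passed the filter only with its MII arrays. It rose by 1.51 ± 0.33, a call lost when probe sets were averaged (0.72) or with an offset at the pooled median (0.81).

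Genes of the TGF-beta and BMP pathways were lower in 14 of 36 and higher in 3, with a median of -0.61. Among ligands, TGFB2 had 485, 566 and 494 in MIII and 59.8, 78.5 and 108 in MIV (-2.43 ± 0.16), and TGFB1 changed by -2.21 ± 0.09. LTBP1, which tethers latent TGF-beta to the matrix, had 4123, 4273 and 4049 in MIII and 451, 404 and 412 in MIV (-3.24 ± 0.08), and LTBP4 changed by -3.26 ± 0.30. The inhibitory SMAD6 and the target ID2 fell too, with changes of -3.27 ± 0.29 and -3.20 ± 0.12. INHBA, which encodes the activin A subunit, moved against the list with 6774, 6556 and 6734 in MIV and 1602, 1559 and 1721 in MIII (2.03 ± 0.06). The BMP antagonist NOG (noggin) rose by 2.70 ± 0.18 and the distant family member GDF15 by 1.22 ± 0.05, the last with 0.69 when probe sets were averaged. On suffix-free probe sets 7 of 25 members were lower and 2 higher.

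In the Wnt pathway 5 of 21 members were lower and 2 higher. WNT5A, a ligand of non-canonical signalling, had 812, 895 and 839 in MIII and 4.8, 3.6 and 44.8 in MIV (-4.77 ± 0.36). The receptors FZD7, FZD1 and FZD2 changed by -2.08 ± 0.07, -1.27 ± 0.12 and -1.11 ± 0.13. The ligands WNT7B and WNT7A rose by 1.63 ± 0.18 and 1.49 ± 0.31, from signals near or under the pooled median in MIII. The median of 0.20 became -0.03 without a filter on dim genes. In the Notch pathway the ligand DLL1 had 376, 380.2 and 299 in MIII and 9.8, 1.3 and 3.7 in MIV (-4.00 ± 0.33), the glycosyltransferase LFNG changed by -3.46 ± 0.23 and the target HEY1 by -3.17 ± 0.20, while the receptor NOTCH3 rose by 1.69 ± 0.14; the other 11 of 15 were not called. Axon guidance molecules were lower in 9 of 33 and higher in 1. NRCAM, a neural adhesion molecule, had 1046, 1015 and 1056 in MIII and 116, 149 and 124 in MIV (-2.84 ± 0.17), the semaphorin receptor NRP1 had 3022, 2924 and 3146 in MIII and 955, 897 and 832 in MIV (-1.74 ± 0.07), and SEMA3C, PLXND1 and PLXNC1 changed by -1.59 ± 0.06, -1.52 ± 0.22 and -2.15 ± 0.40. SLIT3 (-2.19 ± 0.37) and NTN1 (1.18 ± 0.29) lost their calls when probe sets were averaged (-0.84 and 0.46).

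Among G protein-coupled receptors 5 of 25 were lower and 2 higher. S1PR3, a receptor for sphingosine-1-phosphate, had 10378, 10861 and 11168 in MIII and 438, 447 and 398 in MIV (-4.60 ± 0.07), the brightest of the 5 in MIII. PTGER4, a prostaglandin E receptor, rose by 1.97 ± 0.10 and the adhesion receptor ADGRF1 by 2.70 ± 0.17. The prostaglandin F receptor PTGFR and the orphan GPRC5C changed by -2.34 ± 0.42 and -1.95 ± 0.33. Of G protein subunits and RGS proteins 4 of 34 were lower and 0 higher: GNG11, GNG2 (-4.65 ± 0.19), RGS17 (-2.74 ± 0.15) and RGS2 (-1.33 ± 0.08). Both gamma subunits were under the pooled median on all MIV arrays. The share of the list called, 11.8%, was near the 12.7% over all genes tested.

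Ion channels were lower in 7 of 41 and higher in 2. The calcium-activated potassium channel KCNMA1 had 698, 793 and 767 in MIII and 40.1, 30.9 and 83.6 in MIV (-3.54 ± 0.22). SCNN1G, the gamma subunit of the epithelial sodium channel, had 1824, 1866 and 1707 in MIII and 266, 273 and 330.2 in MIV (-2.56 ± 0.10), so that this channel subunit and the channel-activating protease PRSS8 moved in opposite directions. The glutamate receptor GRIK2, the chloride transporter CLCN4 and the potassium channel KCNJ15 changed by -3.00 ± 0.29, -2.15 ± 0.36 and -1.41 ± 0.36, the last with -0.95 without MIV replicate 3, short of 2-fold. The osmosensitive TRPV4 rose by 1.32 ± 0.24. Solute carriers were lower in 8 of 47 and higher in 2, with a median of -0.42. SLC16A7, a monocarboxylate transporter for pyruvate, had 2805, 2400.3 and 1956 in MIII and 255, 209 and 209 in MIV (-3.30 ± 0.13). SLC6A14, an amino acid importer, had 4.2, 13.5 and 1.6 in MIII and 237, 303 and 309 in MIV (3.63 ± 0.17), the largest rise of the list. The prostaglandin transporter SLCO2A1, the glucose transporter SLC2A3, SLC16A4 and SLC22A4 changed by -3.46 ± 0.33, -2.51 ± 0.39, -2.32 ± 0.20 and -2.19 ± 0.18, and the choline transporter SLC44A2 rose by 1.71 ± 0.07.

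Feedback genes of ERK and AP-1 components were higher in 7 of 32 and lower in 2. FOS rose by 1.26 ± 0.08, the ERK phosphatase DUSP5 by 1.73 ± 0.08 and IL17RD, an inhibitor of growth factor signalling, by 2.14 ± 0.12. DUSP1, a phosphatase of JNK and p38, had 7759, 7776 and 7643 in MIII and 1984, 1719 and 2076 in MIV (-1.998 ± 0.07), and DUSP2 changed by -2.96 ± 0.25. ATF3, a stress-induced factor, rose by 2.37 ± 0.20 on its brightest probe set, but its suffix-free one gave -0.40 (limma adjusted p = 0.471) and its direction is therefore uncertain. PHLDA2, an imprinted gene, rose by 1.03 ± 0.05, short of 2-fold without MIII replicate 3 (0.98) or after cyclic loess normalization (0.96). Averaging its probe sets gave 0.825, and its suffix-free probe set gave 0.668 (limma adjusted p = 0.109).

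Cytokines and chemokines were higher in 5 of 19 and lower in 7. CXCL2, which attracts neutrophils, had 3177, 2815 and 2906 in MIII and 376, 345 and 242 in MIV (-3.16 ± 0.14), and the closely related CXCL3, whose probes may share signal with it, changed by -2.61 ± 0.18. IL6 had 442, 324 and 378 in MIII and 44.5, 67.9 and 3.8 in MIV (-3.01 ± 0.43), and the colony stimulating factors CSF3 and CSF1 changed by -3.17 ± 0.33 and -2.12 ± 0.16. The interleukin 1 antagonist IL1RN had 933, 912 and 982 in MIV and 132, 90 and 114 in MIII (2.89 ± 0.12), and its agonist IL1A rose by 1.79 ± 0.20 on its brightest probe set, while the suffix-free one gave 0.006. CXCL16 rose by 1.28 ± 0.17, with 0.97 at an offset of the pooled median. The median of the cytokines and chemokines list, 0.38, became -0.25 on suffix-free probe sets, so no direction is read from it.

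Interferon-stimulated genes were lower in 11 of 41 and higher in 2, with a median of -0.37. IFITM1, a membrane protein that restricts virus entry, had 4731, 4838 and 5003 in MIII and 309, 215 and 206 in MIV (-4.24 ± 0.12). OAS2, a sensor of double-stranded RNA, had 577, 733 and 736 in MIII and 69.7, 37.4 and 50.2 in MIV (-3.32 ± 0.32). IFI44 and IFI44L, adjacent genes, changed by -2.80 ± 0.33 and -5.26 ± 0.21. IFITM2, close in sequence to its neighbours, and the conjugating enzyme UBE2L6 changed by -2.71 ± 0.11 and -2.53 ± 0.15. The RNA sensor RIGI and the regulator IRF7 rose by 1.54 ± 0.13 and 1.47 ± 0.13. The share higher (2 of 41) was near that over all genes, and the share lower was above it.

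Genes of antigen presentation were lower in 3 of 25 and higher in 0, with a median of -0.26. The share called, 12.0%, was near the 12.7% over all genes tested. The class I heavy chains HLA-B and HLA-C, which differ little in sequence, had 8310.1, 10080.2 and 11052 in MIII and 2533, 2519 and 2142 in MIV and 11526, 10878 and 10681 in MIII and 2654, 2722 and 2651 in MIV, changes of -2.02 ± 0.09 and -2.04 ± 0.05. CD74, the invariant chain of class II, changed by -2.84 ± 0.35, and averaging its probe sets gave -0.99. Complement genes were lower in 7 of 14 and higher in 0, with a median of -1.48. C1S and C1R, the paired proteases that start the classical pathway, had 699, 733 and 722 in MIII and 2.4, 5.2 and 8.5 in MIV for C1S and 633, 509.5 and 469 in MIII and 52.9, 43.8 and 50.1 in MIV for C1R. They changed by -4.97 ± 0.28 and -3.04 ± 0.27 and were under the pooled median on every MIV array. The inhibitor CFI had 734, 754 and 668 in MIII and 47.5, 21.0 and 25.9 in MIV (-3.92 ± 0.25), and the receptor C5AR1, clusterin (CLU) and C1QTNF1 changed by -2.64 ± 0.34, -2.26 ± 0.23 and -2.19 ± 0.38. On suffix-free probe sets 3 of 8 complement genes were lower and 0 higher.

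Metallothioneins and NRF2 targets were lower in 5 of 34 and higher in 0, so that 14.7% were called, near the 12.7% over all genes tested. MT1E, which binds zinc and copper, had 26519.6, 26910.2 and 25324 in MIII and 1003, 1000.5 and 1244 in MIV (-4.58 ± 0.07), and MT1F had 18223, 18127 and 17806 in MIII and 5326, 5074 and 5291 in MIV (-1.78 ± 0.04); metallothionein genes are so alike that their probes may share signal. FTL, the ferritin light chain, had 33551, 34476 and 32506 in MIII and 7708, 7263 and 7404 in MIV (-2.16 ± 0.05), and the heme oxygenase HMOX1 and the dismutase SOD2 changed by -1.32 ± 0.16 and -1.06 ± 0.10, the latter short of 2-fold without MIV replicate 2 (-0.998). Genes of aldehyde and retinoid metabolism were lower in 6 of 25 and higher in 2. ALDH1A3, which makes retinoic acid, had 9924, 9283 and 9694 in MIV and 2258, 2319.7 and 2408 in MIII (2.04 ± 0.05), while ALDH3A1 had 814, 844 and 747 in MIII and 56.6, 61.4 and 114 in MIV (-3.15 ± 0.19). Averaging the probe sets of ALDH1A3 gave 0.71. ALDH3B2 rose by 1.90 ± 0.21, and PLAAT4, RBP4 and the dehydrogenase DHRS9 changed by -2.56 ± 0.23, -1.96 ± 0.29 and -1.94 ± 0.09.

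HOX genes, which set position along the body axis, were lower in 5 of 15 and higher in 0. HOXB2 had 488, 474 and 502 in MIII and 13.7, 38.2 and 11.8 in MIV (-3.74 ± 0.22), and HOXB6 had 162, 230.0 and 148 in MIII and 32.5, 33.4 and 22.6 in MIV (-2.04 ± 0.25). HOXC5, HOXC6 and HOXC8 changed by -1.83 ± 0.55, -1.002 ± 0.13 and -1.17 ± 0.40, with limma adjusted p of 0.0132, 2.29e-05 and 0.0265. Those 3 calls were lost without MIV replicate 2 (-1.58, -0.92 and -0.80), and the HOXC5 and HOXC8 calls also without MIV replicate 1 (-1.503 and -0.98). Without MIII replicate 3 the HOXC5 and HOXC6 calls were lost (-1.68 and -0.94), and the HOXC8 call was lost without MIII replicate 1 (-1.15) or 2 (-0.96). Of 14 imprinted genes NAP1L5 changed by -1.15 ± 0.15 and PHLDA2 rose, as above. The share called, 14.3%, was near the 12.7% over all genes tested. Cancer-testis genes gave no value to test, since none of the 19 on the array passed the filter on dim signals.

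Genes of general cell functions differed little. Of 42 cell cycle genes 2 were lower, CCND2 and the kinase inhibitor CDKN1A, which had 6673, 5978 and 6552 in MIII and 1544, 1449 and 1468 in MIV (-2.09 ± 0.06), and the list's median was -0.23. None of 44 respiratory chain genes was called in limma, with a median of -0.05 and changes from -0.71 to 0.54; the one with the smallest p, ATP5MC2, had 11037, 11927 and 10725 in MIII and 7086, 6608 and 6814 in MIV (-0.71 ± 0.05). None of 12 housekeeping genes was called either, with a median of 0.06. Of these, TFRC, the transferrin receptor, had the smallest p and a change of -0.57 ± 0.06. ATP5MC2 and TFRC had limma adjusted p under the threshold (4.03e-08 and 1.59e-06) and did not reach 2-fold.

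The labels' cell type was checked against markers of breast epithelium and of other cell types. KRT5, a keratin of basal epithelium, had 25527.8 to 26734.6 in MIII and 24295.8 to 25472.3 in MIV, KRT8 10374.4 to 11100.0 and 20657.0 to 21433.2, and KRT19 was under the pooled median in both. The summed signal of the 10 epithelial markers was 72216.4 to 73905.2 in MIII and 132003.9 to 142776.8 in MIV. Both lines thus had epithelial keratins, though not all of those listed. KRT14 was called lower, with 876.7 to 1045.2 in MIII and 113.6 to 151.4 in MIV. Fibroblast markers, which move with the matrix genes, summed to 6530.7 to 6860.9 in MIII and 789.7 to 869.5 in MIV; 7 of 10 were over the pooled median on every MIII array and 2 on every MIV array. Of the 7 tested, POSTN, DCN, COL3A1, THY1 and LUM were lower, THY1 with 966.2 to 1025.7 in MIII and 33.3 to 55.8 in MIV and LUM with 173.1 to 221.0 and 8.7 to 16.1. FAP had 373.9 to 429.7 in MIII and 355.3 to 429.9 in MIV, COL1A1 175.8 to 254.0 and 182.9 to 250.4, and PDGFRA, PDGFRB and COL1A2 were under the pooled median on all arrays of both lines. Adipocyte markers, which move with the lipid genes, summed to 22385.5 to 22679.0 in MIII and 1753.9 to 1891.8 in MIV, most of it from FABP4 and CD36; 8 of 10 were over the pooled median on every MIII array and 3 on every MIV array. Of the 8 tested 6 were lower, PLIN1, PLIN4, CIDEC and LPL besides those 2, and 0 higher, and ADIPOQ and LEP were under the pooled median. Endothelial markers were under the pooled median on every array in 8 of 10 cases in MIII and 9 of 10 in MIV, CDH5 and VWF among them. PECAM1, the only endothelial marker tested, was over it on every array and not called, with 213.2 to 275.3 in MIII and 247.6 to 340.3 in MIV. Leukocyte markers summed to 854.7 to 1022.1 in MIII and 684.2 to 856.7 in MIV, with 2 of 8 over the pooled median on every array of each line. These were CD14, with 564.0 to 623.8 in MIII and 293.3 to 367.5 in MIV, and CSF1R, which was called higher, with 78.4 to 84.6 and 196.4 to 250.9, while PTPRC was under the pooled median on all 6 arrays. Smooth muscle and myoepithelial markers summed to 3229.6 to 3637.6 in MIII and 6319.5 to 6587.0 in MIV. The higher sum came mostly from SMTN (1496.2 to 1774.4 in MIII and 4806.3 to 5114.6 in MIV), while TAGLN and MYLK were lower, and CNN1 was under the pooled median in both. Neural and melanocyte markers summed to 19846.9 to 21413.6 and 19544.3 to 20161.7, nearly all of it the tubulin TUBB3, with SOX10 under the pooled median. The part of other cell types in the falls of matrix and lipid genes was not tested beyond these values.

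Called genes that follow each other along a chromosome formed 3 runs of 4 tested genes with the same direction. On chromosome 1 DNAJB4, PTGFR, IFI44L and IFI44 were lower, with changes of -1.42, -2.34, -5.26 and -2.80. On chromosome 12 LPCAT3, C1S, C1R and C1RL were lower, with -1.06, -4.97, -3.04 and -1.42, and LPCAT3 misses 2-fold without MIII replicate 3 (-0.997) or MIV replicate 1 (-0.983). On chromosome 19 SLC25A23, CRB3, TNFSF9 and CD70 were higher, with 2.14, 2.27, 1.47 and 1.38. The run thus joins the polarity gene CRB3 with a mitochondrial carrier and 2 ligands of the tumour necrosis factor family. Gene order was taken from RefSeq for 12578 of the tested genes.

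Other probe sets of the same gene gave a check on these calls. Of 1245 further tested probe sets of 750 called genes, 1194 changed in the same direction (95.9%) and 789 (63.4%) were also called in that direction. The opposite call was found in 5, for SLC29A2, ST3GAL6, PGM5-AS1, HSPB8 and PRKACB. In SLC29A2, a nucleoside transporter, the brightest probe set gave 1.59 and the other -1.13, and in HSPB8, a small heat shock protein, they gave -1.76 and 1.20. Probe sets of a gene can lie in different exons or transcript ends, and which of them holds was not tested.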

How the data were processed

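Total RNA of the 3 lines was hybridised to Affymetrix arrays carrying 54675 probe sets. The deposited intensity values are MAS5 signals on a linear scale, 1 per probe set and array, per the submitters' processing notes. Neither detection calls nor the MAS5 version are given in the sources used here. Control probe sets (62) and those annotated to several genes (1801) or none (11721) were not named. The other 41091 represent 19775 genes, each taken by its probe set of highest mean signal; 41037 probe sets matched RefSeq gene numbers.

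Signals were analysed as log2(signal + 18.3), the offset being the 25th percentile of all values, and a gene was tested if at least 3 of 9 arrays exceeded the pooled median of 69.3. limma 3.58.1 in R 4.3.3 was fitted to all 9 arrays (group means, intensity trend, 6 residual degrees of freedom), with Benjamini-Hochberg adjustment over all genes tested, and the procedure was tested on simulated data. A call needs an adjusted p under 0.05 and a 2-fold difference. An exact permutation test of 3 arrays against 3 cannot go below 0.1 and was not used.

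Named genes are the 20 largest rises and 20 largest falls among called genes without overlapping arrays, up to 6 called members of each list by size of change with up to 3 of the minority direction (or, in a list without calls, its member of smallest p), members of neighbour runs, and CAVIN2. Other list members named were chosen after their values were seen. The results of 1 list are not reported here. The comparison, lists and rule were chosen with earlier results of these data known. Alternatives tried were other offsets, normalizations, filters, variance priors, probe set choices, a replicate block, the 6 arrays alone and leaving out each array. Replicate numbers were not used to pair the samples in the main fit. The deviations of same-numbered MIII and MIV arrays correlated at 0.012, -0.039 and -0.017. These values show no shared replicate effect but cannot tell whether same-numbered arrays were handled together.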

Additional observations from a re-analysis of the deposited data

How the results depend on the processing

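Against 1604 called genes (623 higher, 981 lower), the count moved by more than 1.5 times in 3 settings: the filter at the pooled 75th percentile gave 893, 434 higher and 459 lower, of 8318 tested; an adjusted p under 0.05 without a fold minimum gave 6530, 3186 higher and 3344 lower; and an adjusted p under 0.01 with 4-fold gave 515, 170 higher and 345 lower. The higher genes made up 38.8% of calls, 43.7% after quantile normalization and 48.6% under the 75th percentile filter. Averaging all probe sets gave 1270 calls, suffix-free probe sets 1243 and an offset at the pooled median 1191. A fit with a replicate block gave 1607 calls, 626 higher and 981 lower, and changed no call of a named gene. Leaving out 1 array at a time gave 1563 to 1619 calls. Of 251 named genes 249 were called, and 219 of these lost it in no setting that gave them a value; 123 had a value and the same call in all 23 settings, since stricter filters and suffix-free probe sets leave genes out. ATF3 turned from 2.37 to -0.401 on its suffix-free probe set. Calls of COL6A2, GAS1, IDI1, IL1A, ITGBL1, OVOL2, PHLDA2, SLIT3 and TAGLN were lost on suffix-free probe sets, with values from -0.851 to 0.668. Averaging probe sets ended the calls of 14 named genes, with values from -0.988 (CD74) to 0.974 (ATF3), and an offset at the pooled median ended those of CXCL16, FZD2, HOXC6, HOXC8, ITGA10, ITGBL1, KCNJ15, KRT13, LPCAT3, NTN1, PDGFB, SOD2 and WNT7A, with values from -0.995 to 0.969. Lists with fewer suffix-free probe sets had fewer calls, most of all the collagen-modifying enzymes and chaperones (2 against 9). The causes of these shifts were not tested, and signals under the pooled median of 69.3 limit every statement on the size of a change.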

Other observations

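Antisense transcripts named after a coding partner gave 195 pairs in which both genes were tested, a set put together after the data had been seen. In limma 22 of the antisense genes were called (11.3%), a share near the 12.7% of all genes tested. Of these, 7 had a called partner and 15 did not. In 5 of the 7 pairs both changed in the same direction, as in SPINT1-AS1 (1.66 ± 0.18, SE) and the protease inhibitor SPINT1 (1.56 ± 0.08). ICA1-AS1 (2.85 ± 0.24) and ICA1 (1.96 ± 0.10) rose together, and RASSF8-AS1 (-2.14 ± 0.38) and RASSF8 (-2.03 ± 0.15) fell together. The 2 pairs with opposite calls were ZEB1-AS1 (1.04 ± 0.22) with ZEB1 (-3.43 ± 0.38) and PRKAG2-AS1 (-1.88 ± 0.30) with the kinase subunit gene PRKAG2 (1.00 ± 0.07). Antisense and sense probe sets are told apart here by the annotation alone.

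Probe sets without a single gene name were called in smaller shares than the 12.7% of genes, though a gene stands for its brightest probe set and these stand alone. Of 3989 tested probe sets with no gene 117 were higher and 201 lower in MIV (8.0%), and of 1153 with several genes 37 were higher and 74 lower (9.6%).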
